A study of Mus musculus with 12 samples.

Results

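The oligodendrocyte lineage genes are a set of 28 mouse genes that mark oligodendrocyte precursors, differentiating oligodendrocytes and myelin. They were followed here in cultures of cerebellar granule cells, a neuronal culture for which these genes are not characteristic. The members were named as a list of lineage genes, with earlier results of these data known. Each gene was read from the probe set annotated to its symbol alone, the one with the highest mean over all arrays where there were several. A probe set of this kind was found for 27 of the 28 members, out of 18193 genes that had one in the whole series. Trf, the iron carrier transferrin, had only a probe set shared with a second gene and was not analysed here. The members fell into 6 precursor genes (Olig1, Olig2, Sox10, Nkx2-2, Pdgfra and Cspg4), 5 genes of differentiating cells (Gpr17, Enpp6, Bcas1, Myrf and Tspan2), 13 myelin genes (Mbp, Mog, Mag, Mobp, Cnp, Cldn11, Mal, Opalin, Ermn, Ugt8a, Fa2h, Gjc3 and Aspa) and 3 genes that other cells also express (Sirt2, Qdpr and Car2).

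The cultures carried lentivirus for the calcium channel subunit variant β4a, β4b or β4e, or for eGFP, the fluorescent control protein. Each of these 4 groups had 3 arrays, numbered replicates 1 to 3 in every group, 12 Affymetrix arrays in all. All cells came from lethargic mice on the 129/SvJ background, which carry a mutation of Cacnb4, the gene of the β4 subunit, and were taken on postnatal day 7. The virus was present for 12 hours from plating, the antimitotic drug Ara-C was added 24 hours after plating to hold back dividing cells, and RNA was taken after 9 days in vitro. The groups therefore shared the mutation, the viral exposure and the drug, and no culture without virus or with intact Cacnb4 was among these arrays. The promoter of the constructs, the number of mice per culture and what a shared replicate number stands for are not given in the sources used here, so p-values measure the spread between these arrays, which may be technical. All values are log2 intensities made with GCRMA, a background correction, normalization and summary of Affymetrix probes.

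Oligodendrocytes arise from dividing precursors that depend on platelet-derived growth factor and carry the transcription factors Olig1, Olig2 and Sox10. On leaving the cell cycle they switch on Myrf and, with Sox10, the genes of the myelin sheath that wraps axons. In the cerebellum this maturation takes place in the first weeks after birth, and granule cell cultures prepared at that age can include such cells as well as astrocytes and microglia. The culture's own identity was clear in every array: Neurod1 and Zic1, transcription factors of granule cells, lay between 14.15 and 14.42 in all 12 arrays. The 3 probe sets of Cacnb4 averaged 10.6, 12.0 and 10.0 with β4a, 10.5, 12.0 and 10.2 with β4b, 10.7, 12.0 and 9.9 with β4e, and 10.9, 12.1 and 9.7 with eGFP. Whether these probe sets read the transduced variants is not given in the sources used here, so they do not check the labels.

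Promoter sequences, from 250 bases before to 50 bases after the start of each gene, were found in RefSeq for 19 of the members (build GRCm38.p6). They are shown for Pdgfra, as a precursor gene, and for Mog, Mag and Cnp, as myelin genes, as examples of the 2 classes set apart in the comparison of replicate numbers. Capitals mark matches on either strand to 3 short motifs, in which N stands for any base. ACAAAG is the core bound by Sox factors such as Sox10, and CAGNTG is an E-box that Olig2 and related factors bind. CTGGNAC is called the Myrf motif here, and with any base at N its matches may include sequences that Myrf does not bind. The Pdgfra promoter (chr5:75152001-75152300, plus strand) held an E-box only, Mog (chr17:37023349-37023648, minus strand) a Myrf motif only, Mag (chr7:30914814-30915113, minus strand) a Sox core and 2 Myrf motifs, and Cnp (chr11:100574689-100574988, plus strand) a Sox core, 2 Myrf motifs and an E-box.
Pdgfra: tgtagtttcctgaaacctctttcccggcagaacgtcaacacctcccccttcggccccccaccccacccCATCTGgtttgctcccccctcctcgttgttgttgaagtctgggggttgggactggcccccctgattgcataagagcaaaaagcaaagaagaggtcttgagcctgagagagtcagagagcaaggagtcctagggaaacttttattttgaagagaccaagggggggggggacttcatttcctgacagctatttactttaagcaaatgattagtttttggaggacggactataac
Mog: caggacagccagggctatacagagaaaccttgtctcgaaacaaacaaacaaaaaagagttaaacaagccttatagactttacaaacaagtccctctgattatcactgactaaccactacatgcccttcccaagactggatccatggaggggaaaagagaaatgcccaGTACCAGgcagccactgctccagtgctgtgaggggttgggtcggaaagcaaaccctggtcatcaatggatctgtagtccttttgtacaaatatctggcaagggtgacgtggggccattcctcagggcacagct
Mag: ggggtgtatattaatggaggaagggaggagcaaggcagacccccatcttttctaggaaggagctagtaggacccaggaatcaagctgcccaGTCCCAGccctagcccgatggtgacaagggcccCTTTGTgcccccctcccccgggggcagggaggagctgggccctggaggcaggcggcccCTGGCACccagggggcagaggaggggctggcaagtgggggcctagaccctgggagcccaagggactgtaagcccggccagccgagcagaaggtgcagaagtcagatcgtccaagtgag
Cnp: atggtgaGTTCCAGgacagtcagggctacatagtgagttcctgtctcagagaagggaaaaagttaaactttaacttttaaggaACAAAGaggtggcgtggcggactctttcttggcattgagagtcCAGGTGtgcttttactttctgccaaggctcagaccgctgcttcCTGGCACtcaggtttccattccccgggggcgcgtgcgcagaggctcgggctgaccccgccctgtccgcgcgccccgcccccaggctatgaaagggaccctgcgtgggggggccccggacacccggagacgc
The Myrf motif was present in the promoters of 4 of the 19 members, Mog, Mag, Cnp and Opalin, and in 19.3% of all 32851 promoters of the table. ACAAAG was found in 5 members (Tspan2, Mag, Mobp, Cnp and Opalin), against 18.7% of all promoters. The E-box was found in 10 members, against 51.4% of all promoters. A member was counted when any of its promoters matched, while the percentages count single promoters, so the counts and percentages are not like measures. Mag was counted for the E-box, and Tspan2 for ACAAAG, through promoters other than the first listed, which is the one shown for Mag. Such a match describes letters in this window and is neither a known site nor a cause.

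Among the precursor genes, Olig1 and Olig2, paired basic helix-loop-helix factors that define the lineage, were both detected. Olig1 stood at 10.54, 9.95 and 10.59 in replicates 1 to 3 with β4a, 10.38, 10.18 and 10.77 with β4b, 10.85, 10.07 and 9.96 with β4e, and 10.80, 9.67 and 9.72 with eGFP. The 4 arrays of replicate 1 all lay above the 4 of replicate 2, while replicate 3 spanned both, and each variant overlapped eGFP. Olig2 had 6.35, 5.37 and 5.31 with β4a, 6.18, 5.26 and 5.39 with β4b, 6.05, 5.47 and 4.76 with β4e, and 6.12, 4.90 and 4.60 with eGFP. Replicate 1 was highest in every group, and the lowest eGFP values of Olig2 were those of replicates 2 and 3. Sox10, which drives the lineage from precursor to myelin, stood at 5.04, 4.84 and 4.51 with β4a, 5.06, 4.98 and 4.64 with β4b, 4.90, 5.04 and 4.44 with β4e, and 4.92, 4.75 and 4.53 with eGFP. It was lowest in replicate 3 of every group.

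Pdgfra, the receptor through which platelet-derived growth factor keeps precursors dividing, had 4.96, 3.64 and 3.95 with β4a, 5.07, 4.19 and 4.27 with β4b, 5.40, 3.96 and 3.63 with β4e, and 4.79, 3.46 and 3.52 with eGFP. In replicate 1 every array lay above every array of replicates 2 and 3, and within each replicate number eGFP was the lowest of the 4 arrays. Pdgfra exceeded 4, the level used here as the filter on low values, in the 4 arrays of replicate 1 and in 1 array each of replicates 2 and 3, those with β4b. Nkx2-2, a factor of the precursor to oligodendrocyte transition, was above 4 in the 4 arrays of replicate 1 alone, at 4.11 to 4.32, and lay between 3.45 and 3.76 elsewhere. Pdgfra and Nkx2-2 passed the filter, which asked for 3 arrays, only through replicate 1, so a difference of that replicate from the others was fixed by the filter. Cspg4, the precursor surface proteoglycan NG2, kept to a narrow range of 3.99 to 4.33.

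The genes of differentiating cells varied more. Bcas1, found in newly myelinating cells, stood at 9.67, 8.50 and 7.45 in replicates 1 to 3 with β4a, 9.56, 9.38 and 8.28 with β4b, 9.04, 8.67 and 7.02 with β4e, and 9.54, 8.43 and 7.34 with eGFP. Each group was lowest in replicate 3, and β4b exceeded eGFP by 0.96 in replicate 2 and 0.94 in replicate 3 but by 0.01 in replicate 1. Enpp6, a choline phosphodiesterase of newly formed oligodendrocytes, had 7.23, 5.82 and 5.35 with β4a, 7.25, 5.92 and 5.08 with β4b, 5.94, 5.71 and 4.71 with β4e, and 6.39, 5.61 and 4.56 with eGFP. In replicate 1 the arrays of β4a and β4b were high and those of β4e and eGFP lower.

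Tspan2, a tetraspanin of maturing oligodendrocytes, stood at 6.01, 4.97 and 5.30 with β4a, 6.15, 4.98 and 5.50 with β4b, 6.89, 4.72 and 5.21 with β4e, and 6.40, 4.97 and 5.10 with eGFP. It differed from the other 26 members in that all 4 arrays of replicate 3 lay above all 4 of replicate 2. Myrf, the membrane-anchored factor that starts myelin gene transcription, had 5.28, 4.62 and 4.62 with β4a, 5.04, 5.17 and 4.69 with β4b, 5.05, 4.90 and 4.61 with β4e, and 5.19, 4.65 and 4.54 with eGFP. Replicates 1 and 2 of Myrf overlapped through the β4b arrays. Gpr17, a receptor of committed precursors, did not exceed 3.02 in any array and was not tested.

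**Figure D1:**
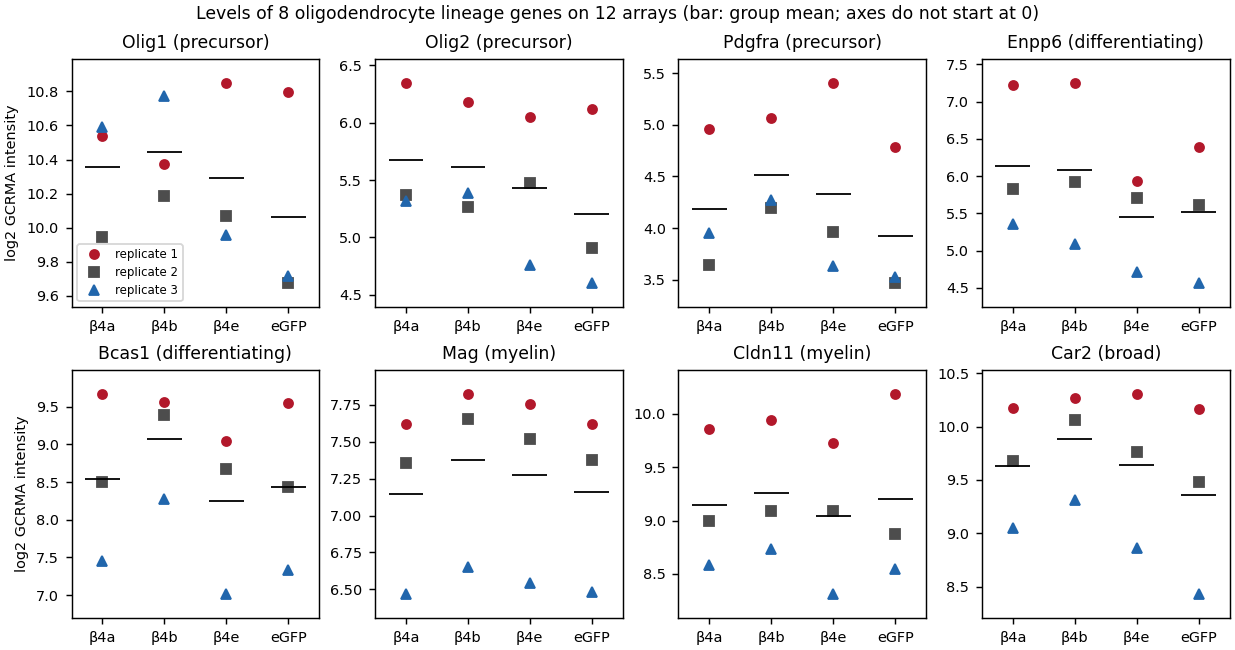
Log2 GCRMA intensity (vertical axis) of 8 members on the 12 arrays, with β4a, β4b, β4e and eGFP from left to right; symbols are replicate numbers and bars are group means of 3 arrays. Replicate 1 is highest in every group for Olig2, Pdgfra, Enpp6, Bcas1, Mag, Cldn11 and Car2, and the spread between replicate numbers exceeds that between group means.

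The myelin genes gave a more uniform picture. Mbp, the basic protein that compacts the myelin membrane, stood at 14.49, 14.25 and 14.10 with β4a, 14.52, 14.37 and 14.12 with β4b, 14.41, 14.33 and 13.94 with β4e, and 14.41, 14.27 and 14.01 with eGFP. The 3 replicate numbers did not overlap, with replicate 1 highest and replicate 3 lowest. Cnp, the cyclic nucleotide phosphodiesterase of non-compact myelin, had 12.12, 11.33 and 11.06 with β4a, 12.16, 11.63 and 11.21 with β4b, 12.22, 11.64 and 10.85 with β4e, and 12.18, 11.32 and 10.83 with eGFP. Here too no array of one replicate number reached into the range of another.

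Ugt8a, the galactosyltransferase that makes the myelin lipid galactosylceramide, stood at 12.23, 11.50 and 10.82 with β4a, 12.21, 11.67 and 10.82 with β4b, 11.81, 11.60 and 10.60 with β4e, and 12.02, 11.42 and 10.94 with eGFP. Cldn11, the claudin of myelin tight junctions, had 9.86, 9.00 and 8.58 with β4a, 9.94, 9.09 and 8.73 with β4b, 9.73, 9.09 and 8.31 with β4e, and 10.19, 8.87 and 8.55 with eGFP. Both separated the replicate numbers without overlap in the same way as Mbp and Cnp. Mag, the adhesion molecule of the innermost myelin layer, stood at 7.62, 7.35 and 6.47 with β4a, 7.82, 7.65 and 6.65 with β4b, 7.76, 7.52 and 6.54 with β4e, and 7.62, 7.38 and 6.48 with eGFP. Replicate 3 of Mag was far below replicates 1 and 2, which overlapped.

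The other myelin genes are given by their ranges. Mog, a surface protein of the outermost myelin layer, lay between 8.51 and 9.12 in replicate 1, 7.11 and 7.76 in replicate 2, and 6.52 and 7.20 in replicate 3. Mal, a myelin proteolipid, ranged over 8.86 to 9.25, 7.80 to 8.17 and 7.14 to 7.83 in replicates 1, 2 and 3, and Ermn, a cytoskeletal protein of late oligodendrocytes, over 7.98 to 8.50, 7.50 to 7.99 and 6.65 to 7.02. Aspa, the aspartoacylase that supplies acetate for lipid synthesis, ranged over 5.16 to 5.51, 4.73 to 5.04 and 4.12 to 4.43. Mobp, a structural myelin protein, and Fa2h, which hydroxylates myelin lipids, were also highest in replicate 1, at 5.62 to 7.07 and 5.38 to 6.20, but had their lowest arrays in replicate 2, at 4.75 for Mobp and 4.67 for Fa2h. Opalin, a membrane glycoprotein of mature cells, exceeded 4 in the 4 arrays of replicate 1 and in 1 other, eGFP replicate 3 at 4.07, so the filter bears on its differences as on those of Pdgfra and Nkx2-2. Gjc3, a connexin, stayed at or below 3.91 and was not tested.

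Of the genes shared with other cells, Qdpr, which recycles tetrahydrobiopterin, stood at 12.89, 12.74 and 12.29 with β4a, 13.06, 12.69 and 12.20 with β4b, 12.84, 12.68 and 12.29 with β4e, and 12.84, 12.66 and 12.29 with eGFP. Car2, carbonic anhydrase 2, had 10.17, 9.68 and 9.05 with β4a, 10.27, 10.07 and 9.31 with β4b, 10.31, 9.76 and 8.87 with β4e, and 10.16, 9.48 and 8.43 with eGFP. Both separated the replicate numbers without overlap, and eGFP was the lowest array of Car2 in each of the 3 numbers. Sirt2, a deacetylase abundant in myelin, stood at 9.08, 8.74 and 8.44 with β4a, 8.94, 8.80 and 8.77 with β4b, 9.16, 8.89 and 8.02 with β4e, and 9.04, 8.43 and 8.20 with eGFP. Its replicates 2 and 3 overlapped.

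The first question of the design was whether returning a β4 variant changed these genes relative to eGFP. No member passed the test for any variant: with limma over all 12 arrays and Benjamini-Hochberg adjustment over 23044 probe sets, 0 of the 25 members tested passed for β4a, β4b or β4e, where 0% of all probe sets passed. At an unadjusted p under 0.05 the count was also 0 of 25 for each variant, against 1.21% of probe sets higher and 0.369% lower for β4a, 2.17% and 0.464% for β4b, and 0.295% and 0.0651% for β4e. With the replicate number as a block, which takes the large differences between replicate numbers out of the error, again 0 members passed after adjustment. For β4a and for β4b, 0.00868% of probe sets passed higher and 0.00434% lower in that fit, and for β4e 0%. A test of each probe set alone gave 0 members as well. The 95% intervals show what could have been missed: in the blocked fit their half-width over the 25 members had a median of 0.31 on the log2 scale, and without the block 1.03. In bulk RNA of this kind, fewer oligodendrocyte lineage cells and less RNA per cell cannot be told apart.

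At an unadjusted p under 0.05 in the blocked fit, every member concerned was higher with the variant. With β4a these were Olig2 and Enpp6, 2 of 25 against 8.21% of all probe sets higher, a share near the background. With β4b they were Olig2, Pdgfra, Enpp6, Bcas1, Mag, Ermn and Car2, 7 of 25 against 11.6%. With β4e it was Pdgfra, 1 of 25 against 3.14%. No member was lower at this level, where 7.13%, 7.72% and 2.4% of all probe sets were for β4a, β4b and β4e. None of these passed the adjustment, and the 3 comparisons share the eGFP arrays, so they are not separate evidence.

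The members with the smallest blocked p were the following. For β4b, Car2 exceeded eGFP by 0.11, 0.58 and 0.88 in replicates 1, 2 and 3, a mean of 0.52 (95% interval 0.21 to 0.84 in the blocked fit, limma adjusted p 0.117). Pdgfra exceeded it by 0.28, 0.73 and 0.75, a mean of 0.59 (0.21 to 0.96, adjusted p 0.128). The eGFP values of Pdgfra in replicates 2 and 3, 3.46 and 3.52, lay under the filter level, so this difference rests on weak signal. Its further probe sets, which were not tested, had mean differences of 0.09 and 0.06. Bcas1 averaged 0.64 more (0.17 to 1.11, adjusted p 0.161). The differences of Car2, Pdgfra and Bcas1 were positive in all 3 numbers and smallest in replicate 1.

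For β4a, Enpp6 exceeded eGFP by 0.84, 0.21 and 0.79, a mean of 0.62 (95% interval 0.15 to 1.08 with the block, limma adjusted p 0.239). Olig2 exceeded it by 0.23, 0.47 and 0.72, a mean of 0.47 (0.10 to 0.84, adjusted p 0.251). Car2 averaged 0.27 more than eGFP (-0.04 to 0.59, adjusted p 0.379). For β4e, Pdgfra was 0.62, 0.50 and 0.11 above eGFP, a mean of 0.41 (0.03 to 0.78, adjusted p 0.878). In replicates 2 and 3 the Pdgfra values of both β4e and eGFP lay under the filter level. Its further probe sets, which were not tested, had mean differences of -0.10 and 0.03 for β4e. With that variant Car2 averaged 0.28 more (-0.03 to 0.60, adjusted p 0.892) and Mag 0.11 more (-0.07 to 0.29, adjusted p 0.911). Without the block, leaving out 1 array changed the sign of Car2 for β4a and of Pdgfra, Car2 and Mag for β4e, whereas in the blocked fit no sign changed for these 9 differences.

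By group means, β4a exceeded eGFP for 17 of 27 members, β4b for 23 and β4e for 18, where 54.4%, 55% and 53.3% of all probe sets tested were. Here and below, the 27 members hold Gpr17 and Gjc3, which did not pass the filter. Counts, medians and shares over the 27 are therefore not fully comparable with those over all probe sets tested. The median difference over the members was 0.06, 0.16 and 0.06 for β4a, β4b and β4e, against 0.02, 0.03 and 0.01 over all probe sets tested. By class, the precursor genes had medians of 0.17, 0.27 and 0.14 and the myelin genes of -0.01, 0.11 and 0.06. The medians over all members depended on single arrays: that of β4a was -0.19 without β4a replicate 1 and -0.12 without eGFP replicate 3, and that of β4b was -0.02 when β4b replicate 1 was left out and -0.03 when eGFP replicate 3 was. That of β4e was -0.15 without β4e replicate 1 and -0.11 without eGFP replicate 3. Without eGFP replicate 1 the 3 medians were 0.30, 0.40 and 0.34.

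Within a replicate number these shifts of balance do not arise. The median over the 27 members was 0.05, 0.08 and 0.03 in replicates 1, 2 and 3 for β4a, 0.09, 0.26 and 0.15 for β4b, and 0.05, 0.18 and -0.07 for β4e. The number of members above eGFP in all 3 numbers was 10 with β4a, 11 with β4b and 6 with β4e, against 19.1%, 22.9% and 15.3% of all probe sets tested. Those below eGFP in all 3 numbers were Opalin and Fa2h with β4a (16.4% of all probe sets) and Mobp, Opalin and Gjc3 with β4b (18.1%), and there were 0 with β4e (12.4%). Pdgfra and Car2 were above eGFP in all 3 numbers with each variant, as was no precursor gene besides Pdgfra.

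**Figure D2:**
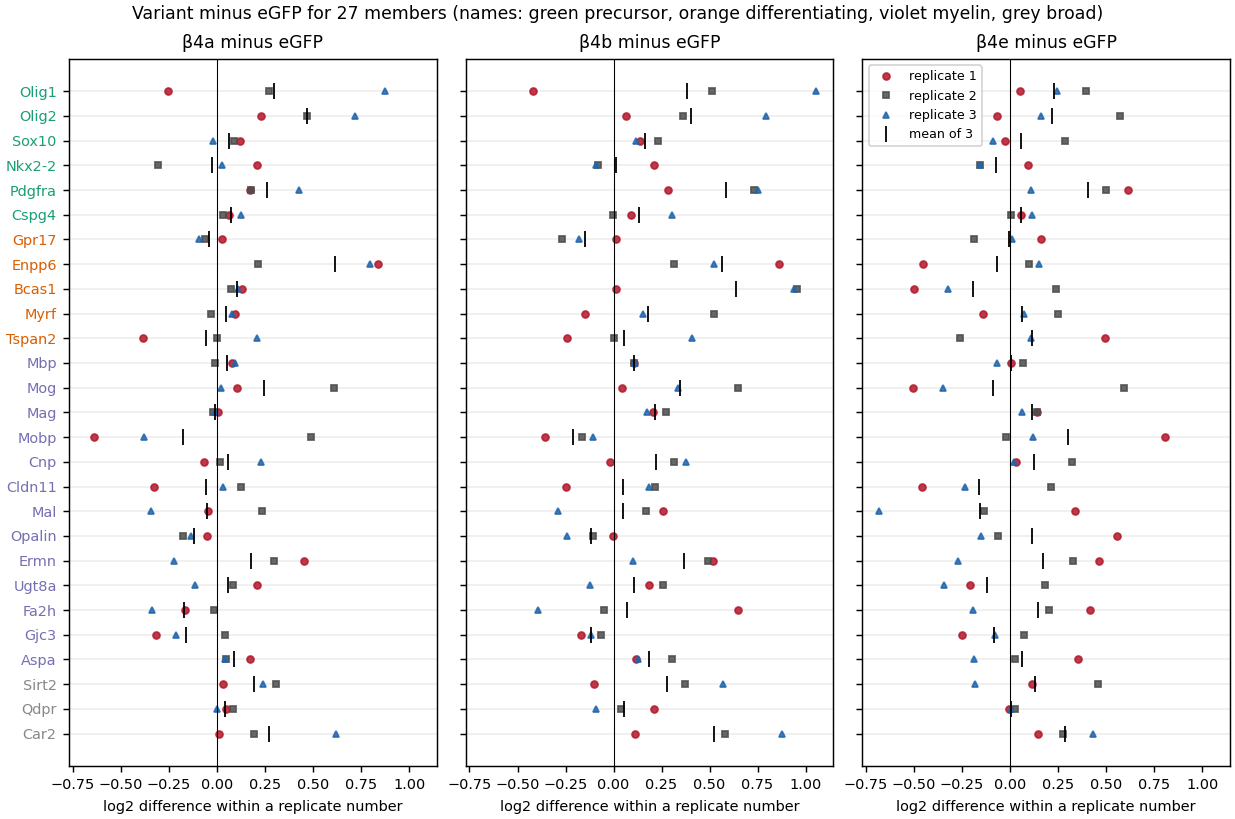
Log2 difference from the eGFP array of the same replicate number (horizontal axis) for 27 members, with 1 panel for each variant; symbols are replicate numbers and ticks are means of 3. The β4b panel has 23 of 27 means above 0, and points of different replicate numbers often lie on opposite sides of 0.

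The variants were also compared with each other. For β4a minus β4b, β4a minus β4e and β4b minus β4e, 0 of 25 members passed with limma after adjustment with or without the replicate block, where 0% of all probe sets passed in either fit. At an unadjusted p under 0.05 without the block the count was 0 as well, where 0.0738% of probe sets were higher and 0.169% lower for β4a minus β4b, 0.469% and 0.195% for β4a minus β4e, and 0.56% and 0.2% for β4b minus β4e. With the block, Bcas1 and Mag were lower with β4a than with β4b (2 of 25, against 1.71% of probe sets lower, and 0 of 25 higher, against 0.972%) and Enpp6 was higher with β4a than with β4e (1 of 25, against 3.6% higher, and 0 lower, against 2.73%). Enpp6, Bcas1 and Mog were higher with β4b than with β4e (3 of 25, against 4.59%, and 0 lower, against 2.52%). Bcas1 averaged 0.83 more with β4b than with β4e (95% interval 0.36 to 1.302, limma adjusted p 0.663), and Enpp6 0.68 more with β4a than with β4e (0.22 to 1.15, adjusted p 0.759). The mean of the 3 variants against eGFP gave 0 of 25 members in both fits, where 0% of all probe sets passed without the block and 0.0174% higher and 0.00434% lower with it. At an unadjusted p under 0.05 it gave 0 members without the block (1.65% of probe sets higher, 0.373% lower) and, with it, Olig2, Pdgfra and Car2 as higher (3 of 25, against 10%) and 0 as lower (7.5%).

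The differences between replicate numbers were large by comparison. Of the sum of squares over the 27 members, 84.8% lay between replicate numbers and 7.04% between groups, against 76.0% and 10.5% over all probe sets tested. In a model with group and replicate number, 23 of 25 members differed between numbers by limma's F test after adjustment, where 65.2% of all probe sets did. This count holds Nkx2-2, Pdgfra and Opalin, which were tested only because replicate 1 was high. The other 22 members passed the filter with the arrays of any 1 replicate number left out, and 20 of them differed, where 65.2% of the 21537 probe sets of that kind did. Olig1 (adjusted p 0.0551) and Cspg4 (adjusted p 0.255) did not pass. Replicate number and whatever its arrays share in culture, RNA preparation or hybridisation cannot be told apart.

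Of these 22 members, 17 were higher in replicate 1 than in replicate 2 and 0 lower, where 28.9% of the 21537 probe sets passed higher and 24.3% lower. Against replicate 3, 20 were higher in replicate 1 and 0 lower, beside 28.6% and 19.4%. Between replicates 2 and 3, 14 were higher in replicate 2 and 0 lower, beside 17% and 15.7%. With Nkx2-2, Pdgfra and Opalin, whose outcome against replicate 1 the filter decided, the counts of higher members were 20, 22 and 14 of 25, where 29%, 28.5% and 16.7% of all probe sets tested passed higher and 24.2%, 19.8% and 15.7% lower. The median difference over the 27 members was 0.57 for replicate 1 minus 2, 1.02 for 1 minus 3 and 0.36 for 2 minus 3, while over all probe sets tested it was 0.04, 0.09 and 0.01. The 4 arrays of replicate 1 lay above the 4 of replicate 2 without overlap for 20 of 27 members (25.3% of all probe sets tested). They lay above those of replicate 3 for 22 (24.7%). Both counts hold Nkx2-2 and Pdgfra, and the 20 also hold Opalin, for which the filter decided the difference from replicate 1. Both also hold Gjc3, which did not pass the filter, so neither count is fully comparable with its share. Replicate 2 lay above replicate 3 without overlap for 12 members (19.1%) and below it for Tspan2 (17.2%).

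Among the myelin genes, Mog, chosen here after its values were seen, showed the largest difference of the tested members: replicate 1 exceeded replicate 3 by 2.06 on the log2 scale, or 4.18-fold (95% interval 3.26 to 5.35, limma adjusted p 2.15e-05). Cldn11 was 2.61-fold higher in replicate 1 than in replicate 3 (2.19 to 3.12), Ugt8a 2.42-fold (2.05 to 2.85), Cnp 2.27-fold (1.94 to 2.66) and Mag 2.25-fold (2.02 to 2.50). Mbp differed less, by 1.33-fold (1.19 to 1.49), at a level near the top of the array's range, whose highest value was 15.02. The 4 adjusted p-values of Cldn11, Ugt8a, Cnp and Mag lay between 7.06e-06 and 3.44e-05. Among the genes of differentiating cells Bcas1 was 3.82-fold higher in replicate 1 than in replicate 3 (2.88 to 5.07) and Enpp6 3.42-fold (2.58 to 4.52). Of the precursor genes, Olig2 was 2.23-fold higher (1.79 to 2.79), while Olig1 did not pass (1.302, 0.93 to 1.83). Pdgfra averaged 5.06 in replicate 1 and 3.85 in replicate 3, the second under the filter level, so no fold is given.

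Replicates 2 and 3 were compared class by class, where 16.7% of all probe sets tested were higher in replicate 2 and 15.7% lower. Of the 6 precursor genes 1, Sox10, was higher in replicate 2 than in replicate 3, 1.29-fold (95% interval 1.13 to 1.48). Olig2 differed by 0.24 (-0.09 to 0.56) and Olig1 by -0.29 (-0.78 to 0.20). The means of Pdgfra and Nkx2-2 lay under the filter level in both replicates. Their differences, -0.03 and 0.04, set the median of the precursor genes, 0.01, so that median rests on weak signal. Of the 12 myelin genes tested, 9 were higher in replicate 2, against that 16.7%, and the median over the 13 myelin genes was 0.49. Mag was 1.92-fold higher (1.72 to 2.13), Ermn, chosen after its values were seen, 1.93-fold (1.60 to 2.33) and Ugt8a 1.69-fold (1.43 to 1.98). Mobp, Fa2h and Opalin did not pass and had differences of -0.44, -0.19 and -0.10. Of the 4 tested genes of differentiating cells 2 were higher in replicate 2, Bcas1 by 2.34-fold (1.76 to 3.10) and Enpp6 by 1.79-fold (1.35 to 2.36). Whether the precursor and myelin classes differ in this was not tested.

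Between replicates 1 and 2, 2 of the 4 precursor genes that did not depend on replicate 1 for the filter passed as higher in replicate 1. These were Olig1 and Olig2, and 10 of 11 such myelin genes passed as well. Of the 21537 probe sets of that kind 28.9% passed as higher and 24.3% as lower. The 4 precursor genes differed by 0.67 (Olig1), 0.92 (Olig2), 0.08 (Sox10) and 0.01 (Cspg4). The median over all 6 precursor genes, 0.64, includes Nkx2-2 and Pdgfra, and that over all 13 myelin genes, 0.57, includes Opalin. The filter decided the difference of these 3 from replicate 1, so the medians do not compare the classes. Olig2 was 1.89-fold higher in replicate 1 (95% interval 1.52 to 2.37). Pdgfra averaged 3.82 in replicate 2, again under the filter level. Mbp, by 1.11-fold (0.99 to 1.24), was the 1 of these myelin genes that did not pass here. The 8 members that separated all 3 numbers without overlap, replicate 1 above 2 above 3, were Enpp6, Mbp, Cnp, Cldn11, Ugt8a, Aspa, Qdpr and Car2, against 1.12% of all probe sets. They included no precursor gene, but Pdgfra and Nkx2-2 averaged under the filter level in replicates 2 and 3 and Cspg4 lay near it. For these 3 a separation of all numbers could hardly show.

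**Figure D3:**
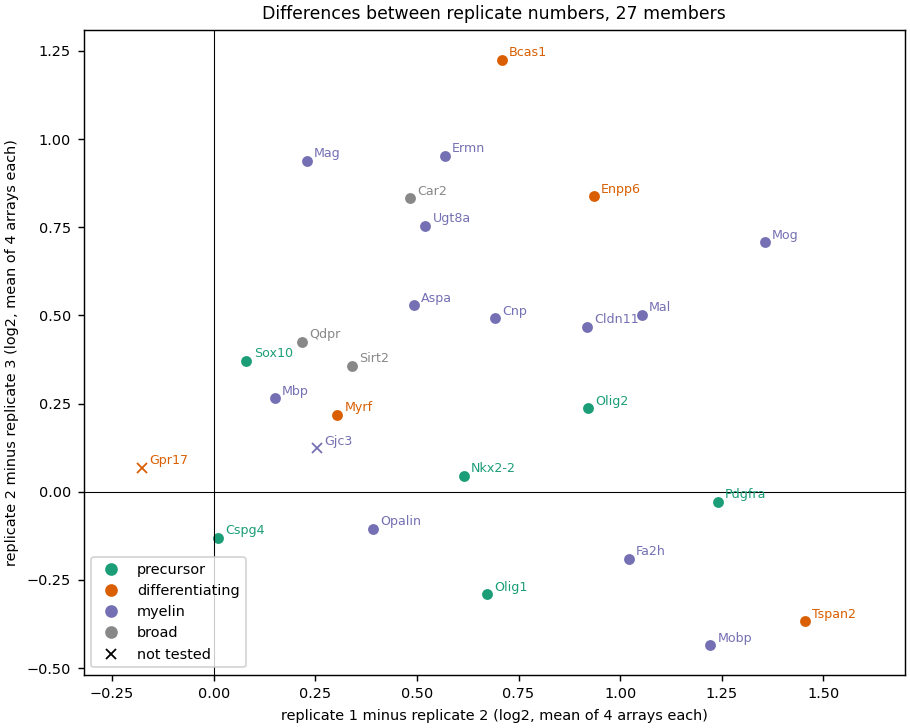
Log2 difference of replicate 1 minus replicate 2 (horizontal axis) and of replicate 2 minus replicate 3 (vertical axis) for 27 members, each a difference between means of 4 arrays, coloured by class; crosses were not tested. All members except Gpr17 lie right of 0, and on the vertical axis the precursor genes Sox10 (0.37), Olig2 (0.24) and Nkx2-2 (0.04) lie above 0 and Pdgfra, Cspg4 and Olig1 below it, while 10 of 13 myelin genes lie above 0 and Mobp, Fa2h and Opalin below.

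Further genes of the lineage were read from lists outside the members. Of 29 further myelin and oligodendrocyte genes with a probe set 25 were tested. Replicate 1 was higher than replicate 2 for 17 of the 25 and lower for 2, and higher than replicate 3 for 20 and lower for 0. Replicate 2 was higher than replicate 3 for 9 and lower for 2. Over all probe sets tested the shares were 29% higher and 24.2% lower, 28.5% and 19.8%, and 16.7% and 15.7%. Lpar1, a lysophosphatidic acid receptor, averaged 6.04 ± 0.18, 5.04 ± 0.20 and 4.80 ± 0.24 in replicates 1, 2 and 3 (SD, n = 4 each). S1pr5, the sphingosine phosphate receptor of oligodendrocytes, averaged 5.95 ± 0.25, 5.44 ± 0.15 and 4.64 ± 0.18, and Adamts4, a metalloproteinase of mature cells, 8.84 ± 0.43, 7.75 ± 0.52 and 6.99 ± 0.25. These 3 ran with the myelin members, whereas Nkain1, which interacts with the sodium pump, was lowest in replicate 2, at 10.34 ± 0.32 against 11.42 ± 0.27 in replicate 1 and 10.87 ± 0.26 in replicate 3.

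Of 12 tested further precursor genes C1ql1 passed the filter through 1 replicate number alone. Of the other 11, 7 were higher and 1 lower in replicate 1 than in replicate 2, and 3 were higher and 3 lower than in replicate 3. In replicate 2, 0 were higher and 6 lower than in replicate 3. The shares of the 21537 probe sets of that kind were 28.9% and 24.3%, 28.6% and 19.4%, and 17% and 15.7%. Lhfpl3, expressed in precursors, averaged 7.99 ± 0.15, 6.45 ± 0.45 and 6.95 ± 0.55 in replicates 1, 2 and 3. Lingo1, an inhibitor of oligodendrocyte differentiation that neurons also express, averaged 7.72 ± 0.14, 6.48 ± 0.34 and 7.58 ± 0.31, and Id2, an inhibitor of differentiation found in many cells, 13.01 ± 0.38, 11.85 ± 0.33 and 12.55 ± 0.09. Tnr, a matrix glycoprotein of the lineage and of some neurons, ran the other way, with 7.48 ± 0.51 in replicate 1 against 9.73 ± 0.32 and 9.45 ± 0.43 in replicates 2 and 3. Among 10 tested genes that signal to the lineage, Pdgfa, the ligand of Pdgfra, was higher in replicate 1, at 9.59 ± 0.14 against 8.48 ± 0.33 in replicate 2 and 8.59 ± 0.15 in replicate 3. Igf1r, the receptor for insulin-like growth factor, averaged 9.74 ± 0.05, 8.90 ± 0.09 and 9.76 ± 0.11 in replicates 1, 2 and 3, and Bdnf, a neurotrophin, 6.54 ± 2.30, 10.26 ± 0.36 and 6.74 ± 0.65. None of the genes of these 3 lists passed for any variant against eGFP, with or without the replicate block.

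Markers of other cells were read on the same arrays. Each variant had a higher mean than eGFP for all 11 tested astrocyte markers, as had 54.4%, 55% and 53.3% of all probe sets tested for β4a, β4b and β4e. The medians were 0.29, 0.55 and 0.16, and 0 markers passed. Their summed level on the log2 scale ranged over 14.03 to 14.80 with β4a, 14.11 to 15.11 with β4b, 14.17 to 14.29 with β4e and 13.66 to 14.35 with eGFP. The 2 lowest arrays for these markers were eGFP replicates 2 and 3, which were also the 2 lowest arrays of Olig1 and Pdgfra. For Olig2 and Car2, eGFP replicate 3 was the lowest of all arrays, and eGFP replicate 2 was the lowest of its own replicate number only. Aqp4, the astrocyte water channel, had 11.42 and 12.35 there, against 12.18 to 13.73 in the same replicate numbers of the variants. Gjb6 was at or under the filter level. The part of astrocytes in the differences from eGFP was not tested.

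Between replicate numbers the astrocyte markers did not follow the myelin genes. Of 11 tested, 2 were higher and 1 lower in replicate 1 than in replicate 2, 2 and 1 against replicate 3, and 0 and 2 for replicate 2 minus 3. Over all probe sets tested the shares were 29% and 24.2%, 28.5% and 19.8%, and 16.7% and 15.7%. Slc1a2, the astrocyte glutamate transporter, averaged 10.87 ± 0.12 in replicate 1, 11.81 ± 0.09 in replicate 2 and 11.35 ± 0.43 in replicate 3. Of 6 microglial markers that passed the filter without any 1 replicate number, 0 were higher and 1, C1qa, lower in replicate 1 than in replicate 2. Against replicate 3 the counts were 0 and 3, the lower ones being Cx3cr1, Csf1r and C1qa. For replicate 2 minus 3 they were again 0 and 3, with the same markers lower. Of the 21537 probe sets of that kind the shares were 28.9% and 24.3%, 28.6% and 19.4%, and 17% and 15.7%. Tyrobp was at 8.81 ± 0.35 and 9.31 ± 0.20 in replicates 1 and 3 and C1qb at 8.74 ± 0.35 and 8.43 ± 0.08, and neither passed. Itgam and P2ry12 were at or under the filter level. Of 7 tested fibroblast and pericyte markers Col1a1 and Lum passed the filter through 1 replicate number alone. Of the other 5, 4 were higher and 0 lower in replicate 1 than in replicate 2, 3 and 0 against replicate 3, and 1 and 1 for replicate 2 minus 3. The shares of the 21537 probe sets of that kind were 28.9% and 24.3%, 28.6% and 19.4%, and 17% and 15.7%. Dcn, a fibroblast proteoglycan, averaged 8.42 ± 0.77, 6.91 ± 0.10 and 3.75 ± 0.31 in replicates 1, 2 and 3, and was the 1 marker higher in replicate 2 than in replicate 3. Col1a2, a chain of type I collagen, was lower there, with 5.66 ± 0.20, 4.58 ± 0.09 and 4.92 ± 0.15, and Fn1 averaged 9.44 ± 0.56, 9.90 ± 0.21 and 9.62 ± 0.30. Pdgfrb, Rgs5 and Vtn were at or under the filter level. Their summed level ranged over 10.22 to 10.85, 10.12 to 10.55 and 9.77 to 10.34 in replicates 1, 2 and 3, and its part in the results was not tested.

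Schwann cells, the myelinating cells of peripheral nerve, share several of the members. Of 7 Schwann cell markers with a probe set, Ngfr, Pmp2, Foxd3 and Dhh were at or under the filter level and 3 were tested. Of these, Pmp22 averaged 9.19 ± 0.08, 7.81 ± 0.53 and 8.88 ± 0.79 in replicates 1, 2 and 3, and Egr2 6.17 ± 2.28, 4.69 ± 0.67 and 3.81 ± 0.29. Of 6 endothelial markers 0 were tested, and Pecam1, Cldn5, Kdr, Cdh5 and Tek were at or under the filter level. Of 7 proliferation genes with a probe set 4 were tested, and Mki67, Bub1 and Aurkb were at or under the filter level. The 11 granule cell markers had a summed level between 16.62 and 16.79 on all arrays. Of these 11, the mean was above eGFP for 1 with β4a, 2 with β4b and 5 with β4e, against 54.4%, 55% and 53.3% of all probe sets tested. The medians were -0.11, -0.08 and -0.06, and 0 passed against eGFP. In replicate 1, 3 were higher and 3 lower than in replicate 2, and 2 and 3 than in replicate 3. For replicate 2 minus 3 the counts were 3 and 2. Over all probe sets tested the shares were 29% and 24.2%, 28.5% and 19.8%, and 16.7% and 15.7%.

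**Figure D4:**
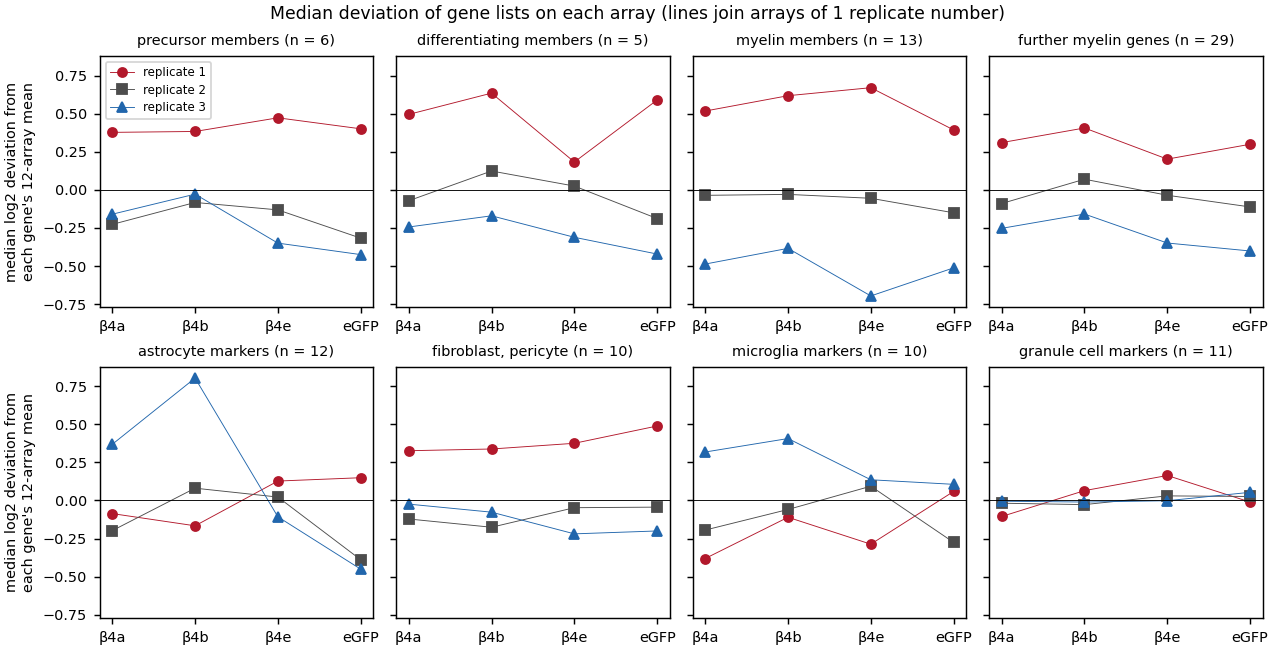
Median log2 deviation of each gene list from its genes' 12-array means (vertical axis) on each array, with β4a, β4b, β4e and eGFP from left to right; lines join arrays of 1 replicate number. The myelin members separate the 3 numbers in every group, from 0.39 to 0.67 in replicate 1 and from -0.70 to -0.38 in replicate 3, whereas the astrocyte markers reach their highest value, 0.80, in β4b replicate 3.

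Several members had more than 1 probe set, and the readings were not always alike. Of 17 further tested probe sets of 9 members, 15 had the sign of the chosen one for replicate 1 minus 2, 14 for 1 minus 3 and 14 for 2 minus 3. For the differences from eGFP only 7, 11 and 8 of the 17 shared the sign for β4a, β4b and β4e. Mbp had 8 probe sets. One of these, with a mean of 7.40, stood at 7.75, 7.997, 6.18 and 6.92 in replicate 1 of β4a, β4b, β4e and eGFP, and differed by -0.18 between replicates 1 and 3 where the chosen one differed by 0.42.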

How the data were processed

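RNA of 12 cultures (500 ng each) was hybridised to 1 array each. The authors deposited 1 table of log2 intensities, made with GCRMA per the submitters' processing notes with no version stated, and these were used unchanged. The table held 45101 probe sets including 64 AFFX controls, which were not tested. Tests covered the 23044 others that exceeded 4 (log2) in at least 3 of the 12 arrays. Names came from the platform annotation: 34958 probe sets had 1 symbol, 932 had several and 9211 had none.

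Under R 4.3.3, limma 3.58.1 fitted a mean for each group over all arrays, with moderated variances on 8 residual degrees of freedom; tests were two-sided, with Benjamini-Hochberg adjustment over all probe sets tested and a threshold of 0.05. Differences between replicate numbers came from a fit with group and replicate number (6 residual degrees of freedom), which also gave the blocked values. The numbers paired the arrays: deviations from the group means correlated at 0.70 to 0.88 in 18 pairs of arrays sharing a number and at -0.74 to 0.15 in the 36 others. The number of arrays limits the precision. The script was tested on simulated data.

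Values in every array are given for up to 4 members per class with the highest mean and for the 3 with the smallest blocked p per variant; of other lists, up to 4 with the largest F statistic between replicate numbers and the 2 brightest markers. The members and lists were chosen with earlier results of these data known. Alternatives were the block, other filters, quantile normalization, an ordinary test of each probe set, all probe sets of a gene, and leaving out each array. Promoters were searched with Python 3.11.15.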

Additional observations from a re-analysis of the deposited data

How the results depend on the processing

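Most results held under the alternatives. The count of members past the threshold for each variant against eGFP, for their mean and for each pair of variants was 0 with the replicate block, as without it, with no filter, with a stricter filter, after quantile normalization, without moderation of the variance and without any 1 array. The count that differed between replicate numbers by the F test was 15 instead of 23 when probe sets had to exceed 6 in at least 3 arrays, where 16 members were tested. Over the 22 members that passed the filter without the arrays of any 1 replicate number, a choice made after seeing the data, it was 20. It ran from 22 to 24 without 1 array, and the counts for replicate 1 minus 2, 1 minus 3 and 2 minus 3 from 17 to 21, 21 to 23 and 12 to 15. With the mean over all probe sets of a gene the median difference was 0.41 for replicate 1 minus 2 and 0.70 for 1 minus 3, and the cause was not tested. Without 1 array the median over the members ran from -0.19 to 0.30 for β4a minus eGFP, from -0.032 to 0.40 for β4b and from -0.15 to 0.34 for β4e, where the lost array leaves the replicate numbers unbalanced between the groups. In the same fits Car2 ran from -0.19 to 0.67 for β4a, and for β4e Pdgfra ran from -0.13 to 0.84, Car2 from -0.18 to 0.69 and Mag from -0.23 to 0.48. In fits with the replicate block and 1 array left out, chosen after seeing the data, none of the 9 named differences from eGFP changed sign or passed, and the lowest adjusted p was 0.0773, for Car2 with β4b. Pdgfra, Nkx2-2, Cspg4 and Opalin lay near the filter level, so their differences rest on weak signal.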
